A study of Mus musculus with 36 samples.

Results

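Genes of the immunoproteasome and of class I peptide loading were followed in colon RNA of wild-type (WT) and IL-17RC knockout (KO) mice through a protocol that produces colon tumors. The 10 genes listed for this group were Psmb8, Psmb9, Psmb10, Psme1, Psme2, Tap1, Tap2, Tapbp, B2m and Nlrc5. Of these, 7 had a probe set that the probe table names by that symbol alone, out of 17097 genes so named. Tap1, Tap2 and B2m had none, and their levels were not analysed here. Where a gene had several probe sets, the one with the highest mean over all 36 arrays was used.

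Most cells cut their proteins into peptides with the proteasome, a barrel whose catalytic subunits are encoded by Psmb5, Psmb6 and Psmb7. Interferon-gamma induces replacements for these subunits, encoded by Psmb8, Psmb9 and Psmb10, and the barrel that carries them is called the immunoproteasome. It also induces Psme1 and Psme2, which form the activator cap PA28. Peptides then enter the endoplasmic reticulum through the transporter made by Tap1 and Tap2, and the chaperone tapasin, encoded by Tapbp, helps to load them onto class I molecules, whose light chain is B2m. Nlrc5 encodes a transactivator of class I genes and of several of these partners. In the colon, epithelial cells present class I peptides to T cells, and both epithelial and immune cells can switch this set of genes on.

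IL-17RC is 1 chain of the receptor through which IL-17A and IL-17F signal, and the label of the KO animals names no tissue or driver, nor does any label name the strain or the deleted part. Mice of both genotypes were 6 to 8 weeks old. Per the labels, each genotype had 4 arrays of untreated colon at day 0, 4 at day 7, 4 at day 15 and 6 of tumors at day 63. All arrays other than the untreated ones came from mice injected with azoxymethane (AOM), which mutates DNA and causes colon tumors in rodents, and then put on dextran sulfate sodium (DSS), which injures the colon lining. The full protocol had 3 cycles, each of 5 days of 3% DSS in the drinking water and 14 days of plain water, so that day 7 and day 15 fall within the first cycle if days count from its start, which the labels do not state. Total RNA of minced colon was hybridized to Affymetrix arrays, and the deposited values are intensities on a linear scale. No group received AOM alone or DSS alone, and there was no untreated group at a later age, so that treatment, age and sampling time cannot be told apart, nor can the tumor from its stage. The labels do not say whether tumor arrays of a group came from different mice, and p-values measure only the spread between these samples.

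Il17rc, on chromosome 6, was read first as a check of the labels. Its intensity lay between 76 and 515 on the WT arrays and between 7 and 15 on all arrays labelled KO except replicates 1 and 2 of the arrays labelled KO day 7, at 331 and 44. Markers of colon epithelium were high on every group of arrays, with summed intensities of 41067 to 57335 over 13 genes in untreated WT colon. Krt5, a keratin of squamous epithelium that colon lining does not normally make, was above 100 on 7 arrays, namely untreated WT replicates 1 and 4, WT day 7 replicates 1 and 4, replicates 1 and 2 of the arrays labelled KO day 7, and replicate 2 of the KO tumors. Each result that rests on these arrays is given below with and without them where that changes a call. The median intensity of an array was 14 to 16, and values near 16 are taken here as near background. Differences are log2 differences ± the standard error (SE) of a limma model over all 36 arrays, with p-values adjusted by Benjamini-Hochberg over all 17097 genes, and a gene is called where the adjusted p is under 0.05. Shares of all genes are given for such calls and for arrays that do not overlap between 2 groups. Counts at an unadjusted p under 0.05 use a looser threshold and have no share beside them, so that they are no result about the genes counted.

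The measured genes lie at few places in the genome (build GRCm38.p6, RefSeq). Psmb9 (chr17:34182030-34187330), Tap1 (chr17:34187556-34197225), Psmb8 (chr17:34198195-34201454) and Tap2 (chr17:34204479-34216321) stand side by side in the class II region of the major histocompatibility complex, and Tapbp (chr17:33919478-33929290) lies 252739 bases before Psmb9. Psme1 (chr14:55578494-55581527) and Psme2 (chr14:55587440-55591101) are separated by 5912 bases. Psmb10 (chr8:105935728-105938392) and Nlrc5 (chr8:94434335-94527272) share a chromosome but are not neighbours. Psmb9 and Tap1 face away from each other with 225 bases between their annotated ends, and their promoter windows overlap over 275 bases.

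RefSeq windows from 250 bases before to 50 bases after the start of transcription were found for 8 of the 10 genes, all but Tap2 and Nlrc5. They were searched on both strands for the interferon-stimulated response element (GAAA, any 2 bases, GAAA), for TTCNNNGAA, the gamma-activated site, for the NF-kB letters (GGGA, any 1 base, TTTCC), for the NF-Y box CCAAT and for the CRE TGACGTCA. Printed here are the windows of Psmb8, at chr17:34197945-34198244 on the plus strand, of Psmb9, at chr17:34187281-34187580 on the minus strand, and of Psme1, at chr14:55578244-55578543 on the plus strand. They are shown because Psmb8 and Psmb9 had the largest differences among the proteasome genes and Psme1 the smallest p, and because the searched letters differ between them. Capitals mark each match.
Psmb8: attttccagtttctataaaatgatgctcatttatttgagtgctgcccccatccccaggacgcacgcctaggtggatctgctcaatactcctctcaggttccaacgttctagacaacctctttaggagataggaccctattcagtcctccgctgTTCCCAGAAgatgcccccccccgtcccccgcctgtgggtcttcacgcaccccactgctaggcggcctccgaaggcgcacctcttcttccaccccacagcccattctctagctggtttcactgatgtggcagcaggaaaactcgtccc
Psmb9: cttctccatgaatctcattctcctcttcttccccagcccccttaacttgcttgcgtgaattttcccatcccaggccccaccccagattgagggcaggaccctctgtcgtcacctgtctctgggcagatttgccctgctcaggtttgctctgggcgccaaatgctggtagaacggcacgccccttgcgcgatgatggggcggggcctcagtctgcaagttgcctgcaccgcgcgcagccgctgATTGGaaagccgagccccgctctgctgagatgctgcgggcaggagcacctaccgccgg
Psme1: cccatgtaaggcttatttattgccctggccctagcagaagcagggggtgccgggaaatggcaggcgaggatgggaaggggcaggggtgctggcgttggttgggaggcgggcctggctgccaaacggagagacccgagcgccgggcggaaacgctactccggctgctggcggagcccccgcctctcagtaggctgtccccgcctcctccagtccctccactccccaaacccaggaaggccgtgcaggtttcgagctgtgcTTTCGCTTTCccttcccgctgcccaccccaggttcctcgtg
The capitals in Psmb8, TTCCCAGAA, fit the gamma-activated site and lie at bases -97 to -89 from the start of transcription. The capitals in Psmb9, ATTGG, are the NF-Y box on the other strand, at bases -8 to -4, and the overlapping Tap1 window holds the same box as CCAAT. The capitals in Psme1, TTTCGCTTTC, are the interferon-stimulated response element on the other strand, at bases 10 to 19 after the start. Among the other windows, Tapbp held 2 NF-Y boxes, and B2m held GAAACTGAAA, an NF-kB match and an NF-Y box. Psmb10 held none of the searched letters, nor did Psme2 in its windows at chr14:55590972-55591271 and chr14:55591052-55591351, which says nothing about what binds elsewhere. Of 32851 windows of the same length, 3.44% held the interferon-stimulated response element, 8.3% the gamma-activated site, 0.411% the NF-kB letters, 37.4% the NF-Y box and 1.79% the CRE. Of the 8 genes with a window, 2 held the interferon-stimulated response element, 1 the gamma-activated site, 1 the NF-kB letters, 4 the NF-Y box and 0 the CRE. These counts are by gene and the shares are by window, and overlapping windows are not independent.

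The first comparison asks whether the genotypes differ before any treatment. In untreated KO colon all 7 measured genes were higher than in untreated WT colon, and for each of them every KO array lay above every WT array, as for 5.21% of all genes. Psmb8, Psmb9 and Nlrc5 differed by 8.14-fold to 13.6-fold, and Psmb10, the PA28 genes and tapasin by 1.94-fold to 3.01-fold. The limma model called 7 of 7 higher, against 1.78% of all genes in this direction. The genes were listed with earlier results of these data known, so that the contrast with all genes is a description and no independent support. The median of the 7 log2 differences was 1.59, against 0 over all genes.

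Psmb8 encodes the inducible subunit that takes the place of Psmb5. Its intensity was 2335, 2511, 2415 and 2858 on the untreated KO arrays and 363, 354, 261 and 252 on the untreated WT arrays. The lowest KO array stood several times above the highest WT array, and the log2 difference was 3.03 ± 0.35 (SE, n = 4 and 4, limma adjusted p = 9.33e-07), or 8.14-fold. Psmb9, the inducible counterpart of Psmb6, read 1511, 1651, 1566 and 1657 in KO and 253, 144, 113 and 121 in WT. The KO arrays lay close together and the WT arrays were spread more widely, with replicate 1 the highest. The log2 difference of Psmb9 was 3.41 ± 0.42 (limma adjusted p = 1.79e-06), or 10.6-fold. Psmb10 replaces Psmb7, and it was already bright in WT, at 814, 840, 801 and 823, against 2380, 2478, 2622 and 2639 in KO. Both groups of Psmb10 were tight, and the log2 difference of 1.59 ± 0.22 (limma adjusted p = 1.08e-05), or 3.01-fold, was the smallest of the catalytic subunits.

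The PA28 subunits Psme1 and Psme2, which form 1 ring together, were both bright in either genotype. Psme1 was 2284, 2470, 2546 and 2479 in untreated KO colon and 992, 1162, 1095 and 1078 in untreated WT colon. Psme2 was 2435, 2567, 2839 and 2626 in KO and 1042, 1292, 1291 and 1284 in WT. For both genes all WT arrays lay below all KO arrays. The log2 difference was 1.15 ± 0.12 for Psme1 (limma adjusted p = 1.81e-07) and 1.06 ± 0.16 for Psme2 (limma adjusted p = 3.34e-05), or 2.22-fold and 2.09-fold.

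Tapbp, which bridges the peptide transporter and class I molecules, was 1234, 1605, 1806 and 1807 in KO and 795, 848, 843 and 756 in WT. KO replicate 1 lay apart from the other KO arrays on the low side, and still above every WT array. The log2 difference was 0.96 ± 0.17 (limma adjusted p = 0.000448), or 1.94-fold, the smallest of the 7 genes. Nlrc5, the class I transactivator, was 102, 148, 175 and 219 in KO and 16, 9, 9 and 9 in WT. The WT arrays were at or below the level taken as near background, so the log2 difference of 3.77 ± 0.48 (limma adjusted p = 3.56e-06) depends on the value added before the logarithm, and it was 2.69 when 16 was added in place of 1. In bulk tissue, fewer cells that make a transcript and less of it per cell cannot be told apart. Without the 7 arrays with Krt5 above 100, all 7 genes were still called higher.

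**Figure D1:**
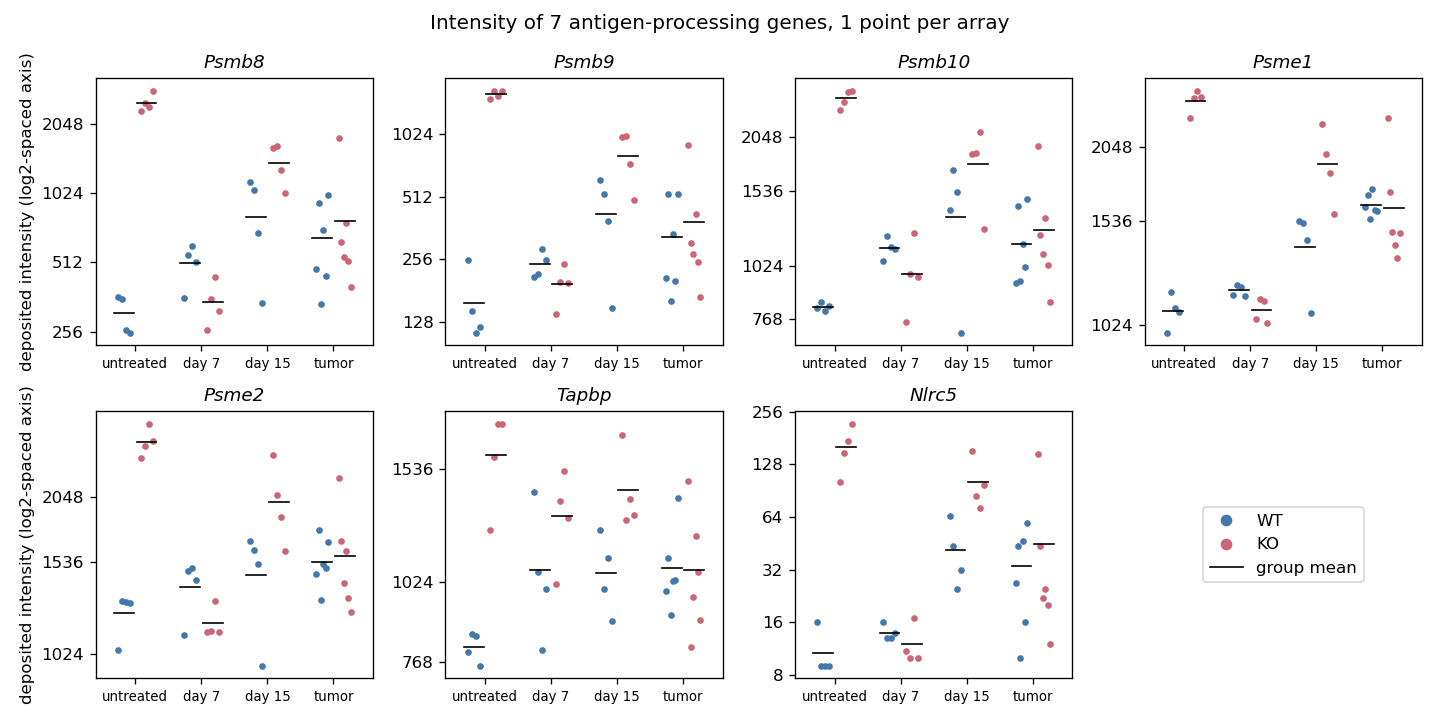
Deposited intensity on each of the 36 arrays for 7 genes, by stage on the horizontal axis, with a log2-spaced vertical axis that does not start at 0, WT in blue, KO in red and a black bar at the group mean. The 4 untreated KO arrays lie above the 4 untreated WT arrays in every panel, from 2335 to 2858 against 252 to 363 for Psmb8.

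Other probe sets of the same genes were compared as a description. The second probe set of Psmb9 averaged 659.5 in untreated KO and 60.25 in untreated WT colon, a log2 difference of 3.50, close to that of the brighter one. The second probe set of Tapbp differed by 1.04. The second of Psmb8, with a mean of 15.8 over all arrays, differed by 1.07, and the third of Psmb9, with a mean of 8.75, by 0.30. The 2 probe sets that read well above background thus gave differences near those of the probe sets used, and the 2 dim ones gave smaller differences.

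None of the constitutive catalytic subunits that the inducible ones replace was called different in untreated colon. Psmb5 was 705, 711, 758 and 745 in untreated KO and 829, 710, 615 and 712 in untreated WT colon, with overlapping groups. The log2 difference was 0.03 (95% interval -0.17 to 0.23) for Psmb5, 0.04 (-0.14 to 0.22) for Psmb6 and 0.17 (-0.18 to 0.51) for Psmb7. Set against its counterpart on the same arrays, Psmb8 gained 3.00 log2 units over Psmb5, Psmb9 gained 3.37 over Psmb6 and Psmb10 gained 1.42 over Psmb7. All 4 KO arrays lay above all 4 WT arrays for each ratio, at the smallest p that a two-sided exact permutation test of 4 against 4 can give, 0.0286, or 0.0621 after adjustment over the 50 such tests made. Psme3, which forms a related activator ring in the nucleus, differed by 0.19 (95% interval -0.18 to 0.56) and was not called. Over the 14 genes of the constitutive core, 3 were called higher, 0 lower, and the median was 0.14. The 3 were Psma1 at 0.54 ± 0.09 (limma adjusted p = 0.000335), Psma5 at 0.43 ± 0.10 and Psma4 at 0.38 ± 0.10, all of the outer rings. Of 22 genes of other activators, of the regulatory particle and of assembly, only Pomp was called, at 0.32 ± 0.09 (limma adjusted p = 0.0456). Pomp encodes the chaperone that helps new proteasomes to assemble.

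**Figure D2:**
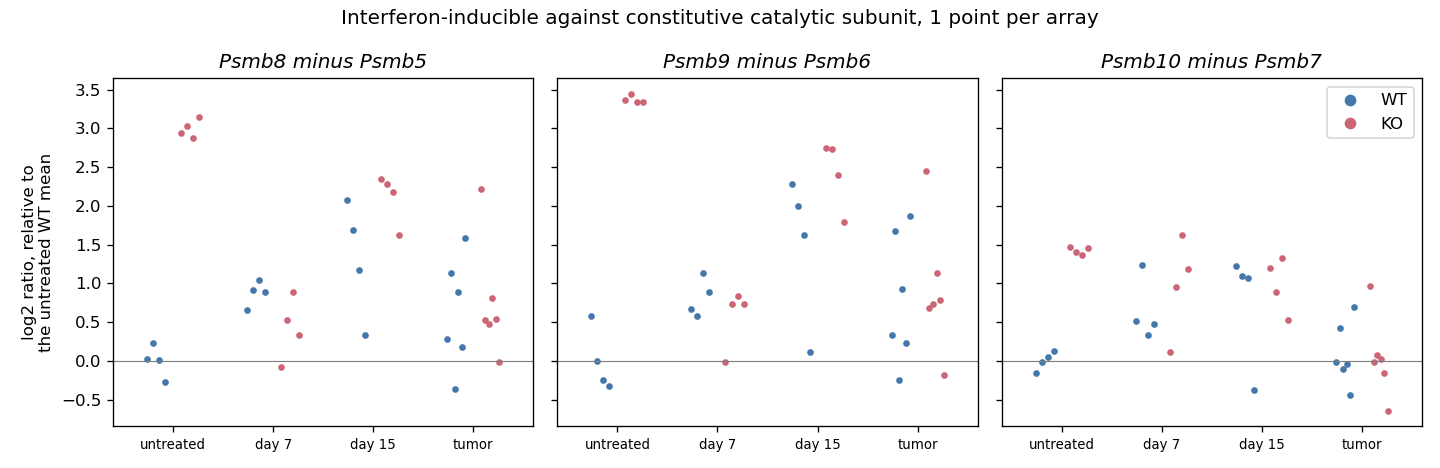
Log2 ratio of each inducible catalytic subunit over the constitutive subunit it replaces, relative to the mean of untreated WT arrays, with 1 point per array, WT in blue and KO in red. The untreated KO arrays lie above the untreated WT arrays in each panel, by 3.00 on average for Psmb8 over Psmb5, 3.37 for Psmb9 over Psmb6 and 1.42 for Psmb10 over Psmb7.

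The genes that act before and after these steps were counted from lists. Of 11 measured class I heavy chain genes, which encode the peptide-binding chain itself, 7 were called higher in untreated KO colon and 0 lower, with a median of 1.04. H2-D1, a classical class I gene, was 5121, 5337, 5707 and 5832 in KO and 2531, 2988, 2693 and 2682 in WT, without overlap, a log2 difference of 1.03 ± 0.13 (limma adjusted p = 2.21e-06). H2-K1, the other classical gene, differed by 0.79 ± 0.14 (limma adjusted p = 0.00043), and the non-classical H2-Q4 by 3.17 ± 0.42. Probe sets of class I genes can bind several near-identical members, so that each of these values may hold signal of another. Of 13 other trimming and loading factors, 3 were called higher and 0 lower. They were Erap1 (1.22 ± 0.14), which trims peptides in the endoplasmic reticulum, Tapbpl (1.46 ± 0.24), a relative of tapasin that edits the bound peptides, and Lap3 (1.20 ± 0.23), a cytosolic aminopeptidase. The chaperones Calr, Canx and Pdia3, which fold many glycoproteins, differed by 0.31, 0.09 and 0.21 and were not called.

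A list of 9 measured genes held partners of Nlrc5 at class I promoters and Ciita, the class II transactivator. Only Ciita was called in untreated colon, and none of the partners. Ciita was 41, 75, 60 and 49 in KO and 14, 11, 11 and 13 in WT, near background in WT (log2 difference 2.09 ± 0.29, limma adjusted p = 9.52e-06). Rfx5, which binds the X box of these promoters, differed by 0.42 ± 0.13 and was not called. Of 17 measured genes of interferon signalling, 7 were called higher and 0 lower. Irf1, a transcription factor that binds the interferon-stimulated response element, was 1030, 1209, 1477 and 1469 in KO against 472, 369, 395 and 373 in WT, a log2 difference of 1.66 ± 0.27 (limma adjusted p = 0.000125). Irf9, part of the factor that type I interferon activates, differed by 1.62 ± 0.26. Ifng itself, 1 of the 7, was called higher at 0.46 ± 0.10 (limma adjusted p = 0.00464), but its intensities were 12, 12, 12 and 15 in KO and 9, 10, 9 and 8 in WT, all near background.

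Markers of some immune cell types were also higher in untreated KO colon, and those of neutrophils were not. Of 15 T cell and NK cell markers, 7 were called higher in untreated KO colon, and their summed intensity was 539 to 669 in KO and 196 to 223 in WT. Granzyme genes led them, with Gzma at 3.45 ± 0.31 and Gzmb at 2.83 ± 0.33, while 11 of the 15 had a mean below 16 in WT and 5 in KO. The T cell receptor complex genes Cd3d at 2.07, Cd3g at 1.72 and Cd3e at 0.69 were also called higher, as were Cd2 at 1.69 and Nkg7 at 1.63, while Cd4 at 0.12 and Cd8a at 0.65 were not called. Of 11 monocyte and macrophage markers, limma called 0, 7 were higher at an unadjusted p under 0.05, and the sum was 2645 to 4096 in KO against 1247 to 2503 in WT. Of 8 B cell and plasma cell markers, 2 were called higher (Ighm and Jchain), with sums of 5566 to 8055 against 2170 to 5115. Of 9 neutrophil markers, 0 had an unadjusted p under 0.05, with sums of 111 to 139 in KO against 107 to 8672 in WT. A mean below 16 was found for 7 of these 9 in KO and for 5 in WT. Of 6 dendritic cell markers, 2 were higher at an unadjusted p under 0.05, with sums of 75 to 90 against 63 to 68. Of 13 colon epithelium markers 0 were called by limma, with 2 higher at an unadjusted p under 0.05, and of 12 squamous markers 0 were called, with 8 lower at an unadjusted p under 0.05 and sums of 155 to 236 in KO against 164 to 37822 in WT. The part of these cells in the result was not tested.

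At day 7 most of the genes had fallen in KO colon. Against untreated KO colon, 6 of 7 genes were lower by limma, all but Tapbp, where 6.56% of all genes were called lower. Psmb8 was 260, 356, 442 and 315 on the arrays labelled KO day 7, all far below the untreated KO arrays, a log2 difference of -2.82 ± 0.35 (limma adjusted p = 1.77e-06). Psmb9 changed by -2.98 ± 0.42, Psmb10 by -1.29 ± 0.22, Psme1 by -1.08 ± 0.12, Psme2 by -1.07 ± 0.16 and Nlrc5 by -3.65 ± 0.48. Nlrc5 read 11, 10, 17 and 10, near background again. Tapbp was not called, at 1014, 1366, 1523 and 1285, which overlaps untreated KO (log2 difference -0.24 ± 0.17, limma adjusted p = 0.425). With the mean of its 2 probe sets in place of the brighter one it was called lower as well, at -0.56 ± 0.18 (limma adjusted p = 0.0361).

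Without the 2 arrays of this group whose Il17rc was above 20, or without the 7 arrays with Krt5 above 100, 6 genes were still lower. The constitutive core also moved at this step, with 8 of 14 genes lower and a median of -0.32, Psmb7 by -0.84 ± 0.17. Markers of several immune cell types were lower at the same step. Of 9 neutrophil markers, 2 were higher and 0 lower at an unadjusted p under 0.05. In untreated KO colon 7 of these 9 had a mean below 16, with sums of 111 to 139, so that a fall could hardly be seen. On the arrays labelled KO day 7 they summed to 99 to 10687. T cell and NK cell markers summed to 193 to 215 on these arrays, against 539 to 669 in untreated KO colon, with 8 of 15 lower. Monocyte and macrophage markers summed to 688 to 1575, against 2645 to 4096, with 8 of 11 lower, and 5 of 8 B cell and plasma cell markers were lower. Of 10 smooth muscle markers 2 were higher. The part of these cells in the result was not tested. H2-D1 fell by 0.94 on the log2 scale and H2-K1 by 0.77, among 7 of 11 class I heavy chain genes that were lower.

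In WT colon no gene of the set was called at this step. Psmb8 was 360, 552, 602 and 512 at WT day 7, a log2 difference from untreated WT of 0.74 ± 0.35 (limma adjusted p = 0.379). Limma called 0 of 7 genes, where 1.66% of all genes were called in either direction. At the looser threshold of an unadjusted p under 0.05, 3 were higher, and no share of all genes is given for it. Psmb10 was the only one of the 7 whose day 7 arrays, at 1052 to 1201, all lay above the untreated WT arrays, which 1.77% of all genes did, and it was called when only the groups compared were fitted (limma adjusted p = 0.0233).

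The change from untreated to day 7 differed between the genotypes for 6 of 7 genes by the interaction term of limma, all more negative in KO, where 1.73% of all genes were. The interaction was -3.56 ± 0.50 for Psmb8, -3.72 ± 0.59 for Psmb9, -4.02 ± 0.68 for Nlrc5 and between -1.76 and -1.22 for Psmb10, Psme1 and Psme2. That of Tapbp was -0.62 ± 0.24 (limma adjusted p = 0.184), and -0.94 ± 0.25 with the mean of its probe sets, which was called (limma adjusted p = 0.0401). Between the genotypes at day 7, limma called 0 of 7 genes, where 0.287% of all genes were called, and 0 had an unadjusted p under 0.05. The differences ran from -0.54 (95% interval -1.26 to 0.19) for Psmb8 to 0.34 (-0.01 to 0.68) for Tapbp. Psme1 was the only one of the 7 without overlap at day 7, with all arrays labelled KO below all WT arrays, as for 2.43% of all genes. These intervals do not show that the genotypes were alike, but the upper bound of each lies below the same gene's untreated estimate.

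**Figure D3:**
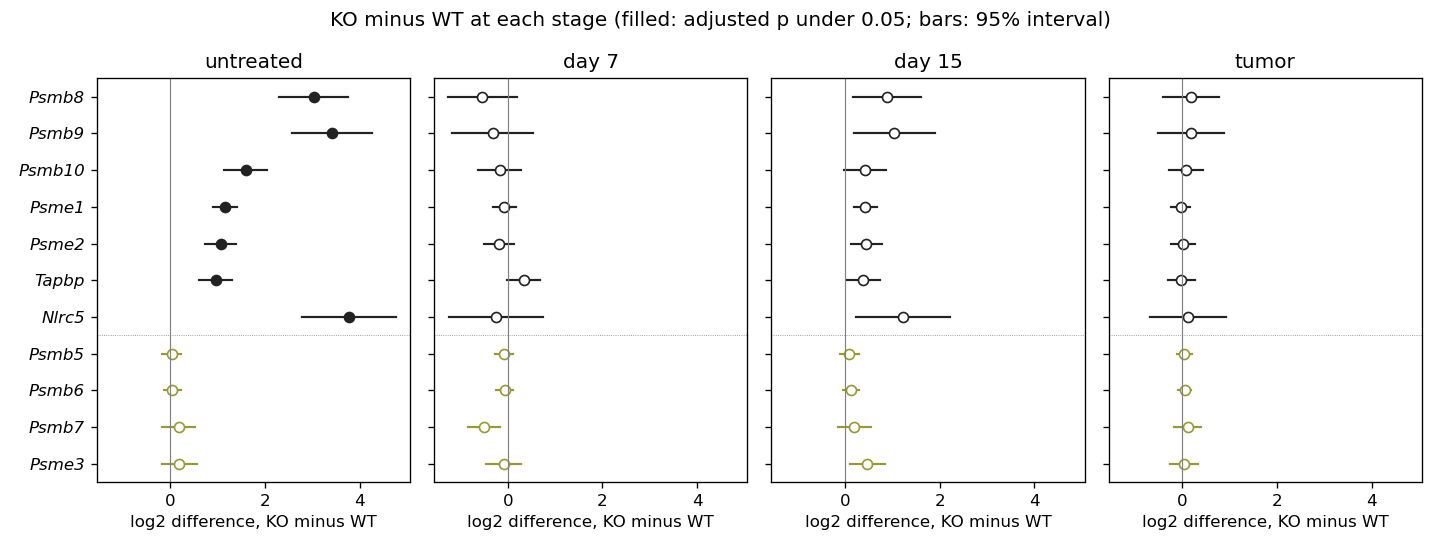
Log2 difference of KO minus WT at each stage for 7 genes and, below the dotted line, for 3 constitutive catalytic subunits and Psme3, with bars for the 95% interval and filled points for an adjusted p under 0.05. The 7 genes lie between 0.96 and 3.77 in untreated colon, and 0 of them are called at day 7, at day 15 or in tumors.

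At day 15 the estimates of all 7 genes were higher in KO than in WT colon, but none passed the test. Psmb8 was 1604, 1638, 1289 and 1028 in KO and 1140, 1061, 687 and 341 in WT, groups that overlap. Psme1 was 2236, 1987, 1847 and 1578 in KO and 1533, 1520, 1427 and 1075 in WT, groups that do not. Nlrc5 was 152, 84, 72 and 97 in KO and 65, 44, 25 and 32 in WT, again without overlap. The median of the 7 log2 differences was 0.45. Limma called 0 of 7, where 0.222% of all genes were called in either direction. At the looser threshold of an unadjusted p under 0.05 there were 6, and no share of all genes is given for it. The closest was Psme1 at 0.43 ± 0.12 (limma adjusted p = 0.147), and the 95% intervals were 0.16 to 1.60 for Psmb8, 0.18 to 1.89 for Psmb9 and 0.24 to 2.21 for Nlrc5. For each of the 7 genes the KO array lay above the WT array of the same replicate number in 4 of 4 numbers. No label states a pairing, the genes varied together over the arrays, and the share of all genes with this order is not given. With the number as a block limma still called 0, Psme1 having the lowest adjusted p, 0.116. Tapbp was the third gene without overlap between groups. Of all genes, 3.19% had all KO arrays above all WT arrays and 0.544% had all of them below.

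Against untreated colon, WT day 15 arrays were higher by limma for 2 of 7 genes, where 2.09% of all genes were called higher. These were Psmb8 at 1.27 ± 0.35 (limma adjusted p = 0.04) and Nlrc5 at 1.76 ± 0.48 (limma adjusted p = 0.0367), and Psmb9 had a similar estimate, 1.31 ± 0.42 (limma adjusted p = 0.0777). These calls rest on few arrays. Psmb8 was no longer called when any 1 of the 8 arrays compared other than WT day 15 replicate 4 was left out, with adjusted p of 0.0509 to 0.151. Nlrc5 was not called without WT day 15 replicate 1 or 2 or untreated WT replicate 2, 3 or 4, with adjusted p of 0.07 to 0.129. Without the 7 arrays with Krt5 above 100 neither was called. WT day 15 replicate 4 was the lowest of its group for all 7 genes but Nlrc5, and without it 5 genes were called, Psmb9 at 1.78, Psmb10 at 0.92 and Psme1 at 0.49 in addition. In KO colon limma called 0 of 7 genes between day 15 and untreated, where 0.795% of all genes were called. At the looser threshold of an unadjusted p under 0.05, 5 were lower, and no share of all genes is given for it. All estimates were below 0, from -1.07 for Psmb9 to -0.20 for Tapbp, and for Psmb8, Psmb9, Psmb10 and Psme1 all day 15 arrays lay below all untreated arrays, as for 3.15% of all genes.

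The interaction of genotype and day 15 was called for 0 of 7 genes by limma, where 0.0819% of all genes were called. All 7 had an unadjusted p under 0.05, a looser threshold for which no share of all genes is given. The genes varied together over the arrays, so that this count is no result about the set. The interaction was -2.14 ± 0.50 for Psmb8 (limma adjusted p = 0.0781) and -0.72 ± 0.17 for Psme1 (limma adjusted p = 0.0893). Without WT day 15 replicate 4, which was low for most of the genes, it was called for 4 of 7, namely Psmb8 at -2.52, Psmb9 at -2.84, Psmb10 at -1.45 and Psme1 at -0.85. T cell and NK cell markers summed to 418 to 795 at KO day 15 and 296 to 598 at WT day 15, and monocyte and macrophage markers to 4811 to 14603 and 3445 to 8383, and their part in these values was not tested.

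In tumors no difference between the genotypes was called for any of the genes. Psmb8 ranged from 401 over a median of 584.5 to 1779 on the KO tumor arrays and from 337 over a median of 592.5 to 1005 on the WT tumor arrays. Psme1 ranged from 1331 over 1466 to 2290 in KO and from 1548 over 1610 to 1738 in WT. Nlrc5 ranged from 12 over 23.5 to 147 in KO and from 10 over 35.5 to 59 in WT. The groups overlap for every one of the 7 genes, where 0.0526% of all genes had all KO tumors higher and 0.0819% all lower, and the KO tumors were spread more widely than the WT tumors for Psme1. KO tumor replicate 1 was the highest of the KO tumors for each of the 7 genes, with a mean over the genes of 1.84 log2 units above untreated WT colon, where the other 5 KO tumors lay between 0.22 and 0.88. Limma called 0 of 7 genes between KO and WT tumors, where 0.0526% of all genes were called, and 0 had an unadjusted p under 0.05. The log2 differences ran from -0.04 to 0.18, with 95% intervals of -0.41 to 0.77 for Psmb8, -0.25 to 0.16 for Psme1, -0.31 to 0.26 for Tapbp and -0.69 to 0.92 for Nlrc5.

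Against untreated colon of the same genotype, tumors had estimates of opposite sign in KO and WT. KO tumors were lower than untreated KO colon for 7 of 7 genes by limma, where 9.91% of all genes were called lower, by -1.85 ± 0.32 for Psmb8, -2.24 ± 0.38 for Psmb9, -1.05 ± 0.20 for Psmb10, -0.58 ± 0.11 for Psme1, -0.71 ± 0.14 for Psme2, -0.58 ± 0.15 for Tapbp and -2.28 ± 0.44 for Nlrc5. WT tumors were higher than untreated WT colon for 3 of 7, where 12.5% of all genes were called higher. These were Psmb8 at 1.0 ± 0.32 (limma adjusted p = 0.0236), Psme1 at 0.61 ± 0.11 (limma adjusted p = 0.000151) and Nlrc5 at 1.37 ± 0.44 (limma adjusted p = 0.0229), and the other 4 had estimates between 0.34 and 0.99. Of the 3, Psme1 kept its call when any single array was left out, and Psmb8 and Nlrc5 did not. Psmb8 was not called without WT tumor replicate 2 or 6 or without untreated WT replicate 3 or 4, and Nlrc5 not without WT tumor replicate 2, 4 or 6 or untreated WT replicate 2, 3 or 4. Without the 7 arrays with Krt5 above 100, Psme1 alone was called, at 0.57 (limma adjusted p = 0.0117). Without WT tumor replicate 3, 5 genes were called, and without WT tumor replicate 2 or 6 or untreated WT replicate 3 or 4, 1 was.

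Cell markers were also compared between untreated colon and tumors. In WT tumors 8 of 11 monocyte and macrophage, 5 of 15 T cell and NK cell and 5 of 8 B cell and plasma cell markers were higher, and 10 of 10 smooth muscle markers were lower. In KO tumors 1 of 11 monocyte and macrophage markers was higher, 2 of 15 T cell and NK cell markers were lower and 8 of 10 smooth muscle markers were lower. Of all genes, 12.5% were called higher and 10.1% lower in WT tumors, and 10.8% higher and 9.91% lower in KO tumors. The monocyte, macrophage, T cell and NK cell counts in KO tumors are thus near the share of all genes. Summed T cell and NK cell markers were 276 to 499 in WT tumors and 261 to 667 in KO tumors. Colon epithelium markers summed to 37333 to 45968 in WT tumors, against 41067 to 57335 in untreated WT colon. In KO their sums were 36603 to 45449 in tumors, against 52605 to 55999 in untreated colon. Squamous markers summed to 177 to 461 in WT tumors, against 164 to 37822 in untreated WT colon. In KO their sums were 218 to 3995 in tumors, against 155 to 236 in untreated colon. The part of these cells in the tumor results was not tested.

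The interaction of genotype and tumor was negative and called for 7 of 7 genes by limma, where 0.714% of all genes were called in this direction. It was -2.85 ± 0.46 for Psmb8, -3.23 ± 0.54 for Psmb9, -3.66 ± 0.63 for Nlrc5, -1.52 ± 0.28 for Psmb10, -1.19 ± 0.16 for Psme1, -1.05 ± 0.20 for Psme2 and -0.98 ± 0.22 for Tapbp. Without the 7 arrays with Krt5 above 100, 5 of 7 were called, Psme2 at -1.01 and Tapbp at -0.86 not. Tapbp was also not called without untreated KO replicate 3 or 4, when the title codes entered as a block by letter (-0.96, limma adjusted p = 0.129) or by number (-0.93, limma adjusted p = 0.0626). The untreated arrays enter each of these comparisons, so that the untreated difference, the changes within a genotype and the interactions are not independent of each other.

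The constitutive proteasome was also followed into tumors. Of its 14 core genes, 8 were higher in WT tumors than in untreated WT colon and 3 were higher in KO tumors than in untreated KO colon, with 0 lower in either. Psmb5 rose by 0.38 ± 0.09 in WT (limma adjusted p = 0.00193) and by 0.39 ± 0.09 in KO (limma adjusted p = 0.00167), to between 791 and 1001 and between 850 and 1037 on the tumor arrays. Of the 22 genes of other activators, regulatory particle and assembly, 15 were higher in WT tumors and 12 in KO tumors. Of all genes, 12.5% were called higher in WT tumors and 10.8% in KO tumors. Psme3 rose by 0.53 ± 0.17 in WT tumors and had an estimate of 0.37 ± 0.17 in KO tumors (limma adjusted p = 0.119). From untreated WT colon to WT tumors the log2 ratio changed by 0.62 for Psmb8 over Psmb5 (exact permutation p = 0.143), by 0.80 for Psmb9 over Psmb6 (exact permutation p = 0.124) and by 0.09 for Psmb10 over Psmb7 (exact permutation p = 0.743). From untreated KO colon to KO tumors the log2 ratio changed by -2.24 for Psmb8 over Psmb5, by -2.44 for Psmb9 over Psmb6 and by -1.38 for Psmb10 over Psmb7, each with an exact permutation p of 0.00952, or 0.0621 after adjustment over 50 tests. The tumor interaction was called for 0 of the 14 core genes by limma, and 3 had an unadjusted p under 0.05. Of 11 class I heavy chain genes, 8 were lower in KO tumors, with a median of -0.64, and 3 were higher in WT tumors, with a median of 0.07 over values from -1.09 to 1.19. H2-D1 was among both, at -0.64 ± 0.12 and 0.38 ± 0.12.

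Ranked by the mean log2 value of each of the 8 groups, untreated KO colon was highest and KO day 15 second for all 7 genes. For Psmb8, Psmb9, Psmb10 and Psme1 the arrays of these 2 groups did not overlap, and for Psme2, Tapbp and Nlrc5 they did. Untreated WT colon was lowest for all genes but Psme2, where the arrays labelled KO day 7 were lower. From the second rank on, neighbouring groups overlapped in range everywhere except between KO day 15 and WT day 15 for Nlrc5 and between WT day 7 and the arrays labelled KO day 7 for Psme1. The order below the second rank differed between genes, and Psmb8, Psmb9 and Nlrc5 shared 1 order. For Psmb8 the means were 2530 ± 230.4 (SD, n = 4) in untreated KO, 1390 ± 287.8 (n = 4) at KO day 15, 807.2 ± 368.3 (n = 4) at WT day 15, 771.3 ± 508.1 (n = 6) in KO tumors, 650.5 ± 275.1 (n = 6) in WT tumors, 506.5 ± 104.4 (n = 4) at WT day 7, 343.2 ± 76.7 (n = 4) on the arrays labelled KO day 7 and 307.5 ± 59.1 (n = 4) in untreated WT.

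**Figure D4:**
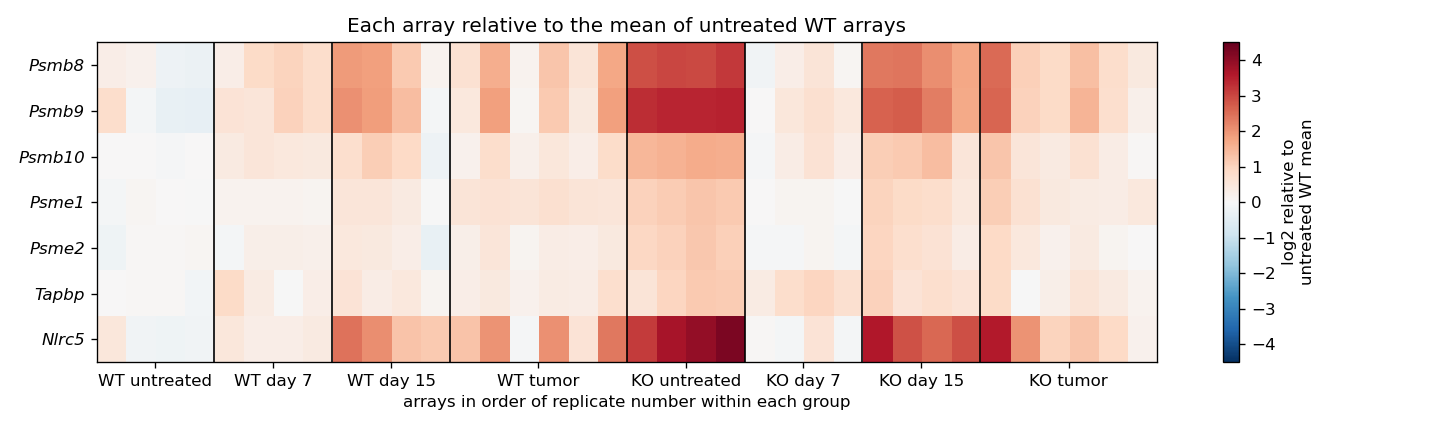
Log2 value of 7 genes on each of the 36 arrays relative to the mean of the 4 untreated WT arrays, in columns by group and replicate, red above and blue below. The mean over the 7 genes is 1.92 to 2.27 on the untreated KO arrays, 0.04 to 0.54 on the arrays labelled KO day 7 and 1.84 on KO tumor replicate 1.

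Array by array, the genes varied together. Over the 36 arrays Pearson's r between pairs of the 7 genes ran from 0.580 for Psme1 with Tapbp to 0.986 for Psmb8 with Psmb9, with a median of 0.893 over 21 pairs. After each group's mean was removed, r ran from 0.432 to 0.961 with a median of 0.716, so that arrays of 1 group also differed together. Tapbp had the lowest values, with r of 0.580 to 0.732 with the other 6. The points share arrays and their normalization, and these values are a description. The mean of the 7 genes relative to untreated WT was 0.40 to 0.46 on the WT day 7 arrays, 0.11 to 1.26 at WT day 15, 0.18 to 1.21 in WT tumors, 1.19 to 1.83 at KO day 15 and 0.22 to 1.84 in KO tumors.

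The genes outside the set whose pattern over the 36 arrays was most like its mean were Igtp (r = 0.956), Zbp1 (0.954), Gbp7 (0.948), H2-DMb1 (0.947), Il18bp (0.947), Parp9 (0.946), Dtx3l (0.946) and Gbp8 (0.945). Igtp, Gbp7 and Gbp8 encode guanosine triphosphatases induced by interferon, and H2-DMb1 a chain of the class II peptide editor. Without the untreated KO arrays, r of these 8 genes was 0.901 to 0.929 over 32 arrays. Irf1 reached 0.918 over 36 arrays and H2-K1 0.924, while Psmb5 was at 0.088, Psmb6 at 0.022 and Psmb7 at 0.155.

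Genes beside the set on the chromosomes were read as a last description. Of 39 other genes within 50 kb of one of the 10, 35 were measured, and 6 were called higher in untreated KO colon and 0 lower. In the class II region these were H2-DMb2 at 4.04 ± 0.53, H2-DMb1 at 3.42 ± 0.42, H2-DMa at 3.85 ± 0.53 and H2-Ab1 at 3.41 ± 0.56, which encode chains of class II molecules and of their peptide editor. H2-Ob, in the same stretch, had an estimate of 1.20 ± 0.66 (limma adjusted p = 0.465). Beside Psme2 they were Irf9 and Rnf31, a ubiquitin ligase subunit, at 1.11 ± 0.23, while Emc9, which lies between Psme1 and Psme2, was at 0.04 ± 0.22 and not called.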

How the data were processed

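Total RNA of 36 mouse colon samples was labelled with biotin and hybridized to Affymetrix arrays, per the labels' protocols. The authors deposited 1 table of intensity values for 45037 probe sets on a linear scale in whole numbers from 4 to 14185; how they were corrected, normalized and summarized is not given in the labels or file header. An array has no read depth, and the number of arrays limits the precision. Of the probe sets, 28898 had 1 gene symbol in the table used, 551 several and 15588 none, and only the first kind was kept, 1 per gene by the highest mean. Intensities were quantile normalized as log2(intensity + 1) and fitted with limma 3.58.1 in R 4.3.3 as 8 group means with moderated variances and an intensity trend, in 13 comparisons. No 2 arrays were identical, and the lowest correlation between arrays was 0.913.

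The members and the gene lists were chosen with earlier results of these data known. Named are the 10 listed genes, counterparts set beside them, up to 2 members of a list by smallest p, the 8 most similar genes and Il17rc. Some further list members and the chromosomal neighbours were named after their values were seen. Alternatives were a pseudocount of 16, median centring, the deposited values with no further normalization, no intensity trend, leaving out genes below the median level, the mean of all probe sets, only the groups compared, blocks by the title code's letter or number or by replicate number, and each array left out. Added after seeing the data were leaving out the 7 arrays with Krt5 above 100, the 2 arrays labelled KO day 7 with Il17rc above 20, or replicate 4 of both genotypes at day 15.

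Residuals of equal replicate numbers correlated above 0.1 in every pair only for WT day 7 with untreated (0.165 to 0.397) and for KO with WT at day 15 (0.173 to 0.8), and no label states a pairing. The fit was also run on simulated arrays with independent noise for each gene. Genes on the real arrays varied together, so that run does not show how well the p-values hold here. Promoter windows and positions are RefSeq's for GRCm38.p6.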

Additional observations from a re-analysis of the deposited data

Results flagged for a closer look

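For 13 values the change from untreated colon differed between KO and WT by the interaction term of limma. At day 7 these were Psmb8 at -3.56, Psmb9 at -3.72, Psmb10 at -1.76, Psme1 at -1.22, Psme2 at -1.25 and Nlrc5 at -4.02 on the log2 scale. In tumors they were Psmb8 at -2.85, Psmb9 at -3.23, Psmb10 at -1.52, Psme1 at -1.19, Psme2 at -1.05, Tapbp at -0.98 and Nlrc5 at -3.66. All of them share the 8 untreated arrays.

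On 4 occasions 1 array lay far from the others of its group of 4. Psme2 was lowest at 1042 on untreated WT replicate 1 and at 1112 on WT day 7 replicate 1, both arrays with Krt5 above 100, and highest at 1297 on replicate 3 of the arrays labelled KO day 7. Nlrc5 was highest at 16 on untreated WT replicate 1, where the level is near background. Each of the 7 genes was checked in each of the 8 groups. Chance gives such a distance in about 1 in 20 groups checked, so that a few such arrays come by chance alone.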

How the results depend on the processing

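Between KO and WT at day 7, at day 15 and in tumors, and between day 15 and untreated in KO, 0 of 7 genes were called under every alternative run. Under the alternatives other than single arrays left out, and other than leaving out genes below the median level, which removes Nlrc5 from the test, the untreated difference and KO tumors against untreated were called for 7 genes throughout. KO day 7 against untreated and the interaction at day 7 were called for 6 to 7, with Tapbp the seventh under the mean of all probe sets. The interaction in tumors was called for 5 to 7, with Tapbp lost under either title code block. For WT day 7 against untreated, 1 gene was called when only the groups compared were fitted. For WT day 15 against untreated, with 2 called, 1 was called without genes below the median level, where Psmb8 kept its call and Nlrc5 was not tested. Also, 1 was called after median centring, with the mean of all probe sets, with only the groups compared or with a pseudocount of 16. There, 0 were called with a block by the letter or the number of the title code or without the 7 arrays with Krt5 above 100, and 5 without replicate 4 of both genotypes at day 15, and leaving out 1 array gave 0 to 5. For WT tumors against untreated, with 3 called, 1 was called with the block by number or without the 7 arrays with Krt5 above 100, 6 with only the groups compared, and 1 to 5 with 1 array left out. For the interaction at day 15, with 0 called, 1 was called with only the groups compared and 4 without replicate 4 of both genotypes, and 0 to 4 with 1 array left out. Other causes were not tested.

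With the replicate number as a block, 7 genes were called in untreated colon, 6 at KO day 7, 7 in KO tumors, 2 at WT day 15 and 4 in WT tumors, Psmb9 in addition at 1.11, and the block moved no count of called genes by over 1.5 times. Of 2017 values of the 7 genes under alternatives, 1945 stayed on the same side of the threshold, 44 lost a call, 28 gained one and 0 changed sign with a call. Nlrc5 lies near the background of 16 in several groups, so its fold changes depend on the pseudocount.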
